A study of Mus musculus with 47 samples.

Results

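Hyaluronan is the large unsulfated polysaccharide of the pericellular matrix, and the genes described here make it, degrade it, bind it or sense it. The list names 9 genes: the synthases Has1, Has2 and Has3, the hyaluronidases Hyal1 and Hyal2, the matrix partners Tnfaip6 and Vcan, and the receptors Cd44 and Hmmr. Probe sets with exactly 1 gene symbol were used, and where a gene had several, the one with the largest average signal on the 47 arrays was read. In this way 8 of the 9 genes were measured, among 12393 genes in all. Hyal1 was not, since its 2 probe sets carry the symbols Naa80 and Hyal1 together. Of the 8, 7 passed the filter on low signal, which dropped the weakest 30% of all genes by average signal (log2 under 4.35), and Has3 did not. On GRCm38.p6 the genes lie at chr17:17833691-17855589 (Has1), chr15:56665627-56694546 (Has2), chr8:106870242-106882902 (Has3), chr9:107567873-107572778 (Hyal2), chr2:52038113-52056681 (Tnfaip6), chr13:89655309-89743027 (Vcan), chr2:102811141-102901669 (Cd44) and chr11:40701388-40733464 (Hmmr).

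RNA was measured on 47 Affymetrix arrays of JB6 cells, which come from mouse epidermis and serve as a model of tumour promotion. All cells had been through retroviral transfer and puromycin selection. In 1 line the virus carried a short hairpin RNA (shRNA) against AnxA2, the gene of annexin A2, a calcium-dependent membrane-binding protein. The other line carried the Ps vector without it. The labels do not say whether either line is 1 clone or a pool. Cells of both lines received 10 or 100 cGy of X-rays or a sham treatment, called untreated here. RNA was collected at 2, 6 and 24 h from irradiated cells and at 2 and 24 h from untreated cells, so that 6 h comparisons rest on irradiated cells. Each of the 16 groups has 3 arrays, except vector cells 24 h after 10 cGy, with 2. The labels number the replicates without saying whether they were separate cultures, so p-values measure the spread between these samples, which may be technical.

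Hyaluronan synthases sit in the plasma membrane and build the chain there from UDP-glucuronic acid and UDP-N-acetylglucosamine, extruding it as it grows. Hyal2, tethered to the cell surface, cuts long chains into pieces that lysosomal Hyal1 degrades further. Versican, the product of Vcan, and TSG-6, the product of Tnfaip6, organise the chains into a matrix, and cells sense it through CD44 and RHAMM, the product of Hmmr. In skin, hyaluronan fills the spaces between basal keratinocytes and surrounds dermal fibroblasts, and its synthesis responds to growth factors and wounding.

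The RefSeq promoter table of GRCm38.p6 matched 7 of the 9 genes, all but Has2 and Has3. Of these, 2 promoters are shown, those of Tnfaip6 and Hmmr, because both genes fell between 2 and 6 h in both lines, and because theirs are the 1 window of the 7 with an AP-1 match and the 1 with 5 CCAAT matches. Each sequence is the 250 bases before the start site of that table, 5′ to 3′ on the strand of the gene. For Hmmr that start lies inside the gene span given above, which reaches base 40733464, so its sequence overlaps the span. In Tnfaip6 (chr2:52037863-52038112, plus strand) the capitals mark the match to TGANTCA, the binding motif of AP-1, a factor of growth factor and stress signalling. In Hmmr (chr11:40733438-40733687, minus strand) the capitals mark the matches to CCAAT, the motif of NF-Y, all of them on the opposite strand and hence read as ATTGG.
Tnfaip6: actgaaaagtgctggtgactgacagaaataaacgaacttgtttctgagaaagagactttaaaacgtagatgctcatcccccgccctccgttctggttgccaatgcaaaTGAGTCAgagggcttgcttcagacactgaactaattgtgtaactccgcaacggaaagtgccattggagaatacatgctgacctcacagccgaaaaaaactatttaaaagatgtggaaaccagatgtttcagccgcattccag
Hmmr: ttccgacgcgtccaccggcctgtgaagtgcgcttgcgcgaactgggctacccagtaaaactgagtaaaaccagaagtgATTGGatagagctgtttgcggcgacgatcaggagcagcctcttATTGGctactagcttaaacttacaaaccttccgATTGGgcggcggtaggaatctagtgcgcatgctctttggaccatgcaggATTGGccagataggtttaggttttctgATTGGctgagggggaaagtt

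Both strands were searched in windows of 300 bases that also take in the first 50 bases after the start, and overlapping matches were counted. The AP-1 match of Tnfaip6 begins 142 bases before the start, and 7.8% of the 32851 windows of the table hold such a match. Hmmr has 5 CCAAT matches, beginning 172, 129, 96, 47 and 20 bases before the start. At least 1 CCAAT was present in 37.4% of all windows, and 5 or more were present in 89 windows (0.27%). Hmmr also has the letters TTTGAA, the CHR element known from mitotic promoters, at base 9 after the start, and 17.9% of windows hold these letters. Tnfaip6 has 2 CCAAT matches of its own, and neither gene has TGACGTCA or TATAAA, held by 1.8% and 13.6% of windows. These are matches of letters, not binding sites measured in these cells.

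The targeted gene was lower on every array of its line: Anxa2 lay between 10.58 and 11.23 on the log2 scale in shRNA cells, against 12.25 to 12.66 in vector cells, and was 2.68-fold lower in untreated shRNA cells at 2 h and 3.19-fold lower at 24 h. A group of 3 vector arrays, replicate 3 of the untreated, 10 cGy and 100 cGy cells at 2 h, stood apart. On the second principal component they lay between -2.37 and 1.75, and the other 6 vector arrays at 2 h between -19.56 and -16.91. A raised 3′ minus 5′ difference of the Gapdh control probe sets, a sign of RNA quality, was found on 4 arrays. It was 1.06 on shRNA 10 cGy 6 h replicate 1, 0.49 on shRNA 100 cGy 2 h replicate 2, 0.31 on shRNA untreated 2 h replicate 1 and 0.59 on vector untreated 2 h replicate 3. Of 9 epithelial markers, 3 were above the low-signal limit by their mean over both lines (Krt5, Krt14 and Krt8), while Krt18, Cdh1, Epcam, Cldn4, Cldn7 and Trp63 were not. Krt14, a basal keratin, averaged 6.57 in shRNA cells and 3.84 in vector cells. Its vector mean lies under the limit of 4.35, so it passed through its shRNA values and its distance between the lines has no exact size. Krt5 averaged 4.69 in shRNA cells and 4.56 in vector cells, and Krt8 5.05 in shRNA cells and 5.03 in vector cells. Of 9 mesenchymal markers, 8 were above the limit, and of these Pdgfra averaged 6.98 in shRNA cells and 9.53 in vector cells. The part of Krt14 and Pdgfra in the line differences below was not tested. Leukocyte (3 of 7 measured) and endothelial (1 of 6) markers were mostly under the limit, with Ptprc at 2.63 in shRNA cells and 2.52 in vector cells.

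Has2, the synthase that makes most hyaluronan in many connective tissues, fell steeply with time in both lines. In untreated shRNA cells its arrays read 4.53, 4.30 and 4.25 (log2) at 24 h, against 9.35, 9.29 and 9.38 at 2 h. In untreated vector cells they read 5.56, 5.62 and 5.53 at 24 h, against 10.55, 10.34 and 6.92 at 2 h. The lone 6.92 belongs to 1 of the 3 arrays that stood apart. The other such arrays read 6.68 after 10 cGy and 7.00 after 100 cGy, while the remaining 4 irradiated vector arrays at 2 h lay between 10.29 and 10.50.

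At 24 h against 2 h, Has2 was 31.5-fold lower in untreated shRNA cells (log2 difference -4.98 ± 0.69 (SE), 95% interval from -6.36 to -3.59, limma with Benjamini-Hochberg adjusted p = 1.18e-06). In untreated vector cells it was 13-fold lower (-3.70 ± 0.69, adjusted p = 8e-05), or lower by a log2 difference of -4.88 ± 0.13 without the 3 arrays. The low values of shRNA cells at 24 h lie near the low-signal limit, where an array understates a difference. The decline was already under way at 6 h: irradiated shRNA cells then read 6.79 to 7.03, 5.44-fold below their 2 h level (-2.44 ± 0.48, adjusted p = 0.000252). Irradiated vector cells read 8.11 to 8.31 at 6 h, a difference of -1.01 ± 0.48 that did not pass with all arrays (adjusted p = 0.161) and of -2.19 ± 0.09 that passed without the 3 (adjusted p = 7.04e-20). It also passed without vector 100 cGy 2 h replicate 3 alone (-1.58, adjusted p = 0.00971) or vector 10 cGy 2 h replicate 3 alone (-1.63, adjusted p = 0.00457). Between 6 and 24 h the fall was 5.89-fold in shRNA cells (-2.56, adjusted p = 4.98e-05) and 5.91-fold in vector cells (-2.56, adjusted p = 0.000101). The shRNA value again ends near the limit and may be understated.

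Has2 was also lower in shRNA cells than in vector cells at 6 h, the 1 time at which the line difference passed with all arrays. There the difference was -1.27 ± 0.48 (2.41-fold lower, adjusted p = 0.0278), with no overlap between the arrays of the lines. Leaving out shRNA 10 cGy 6 h replicate 1, an array with a raised Gapdh difference, ended that call (-1.24, adjusted p = 0.0502). In untreated cells at 24 h it was -1.21 ± 0.69 (adjusted p = 0.168), again with no overlap. The standard errors of these line differences were 0.48 to 0.69 with the 3 arrays and 0.08 to 0.13 without them, and without them the 24 h and 6 h differences had adjusted p = 1.1e-10 and 2.03e-15. In untreated cells at 2 h the line difference was 0.07 ± 0.69 with them (adjusted p = 0.956) and -1.11 ± 0.13 without them (adjusted p = 1.41e-08). No difference between the lines in the change over time was detected (24 against 2 h, -1.27 with an adjusted p of 0.5, and -0.10 with an adjusted p of 0.843 without the 3). The 24 h values of shRNA cells lie near the low-signal limit, so their fall may be understated. The test therefore cannot show that the falls of both lines were equal. A second probe set of Has2 followed the first over the 47 arrays (r = 0.995).

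**Figure D1:**
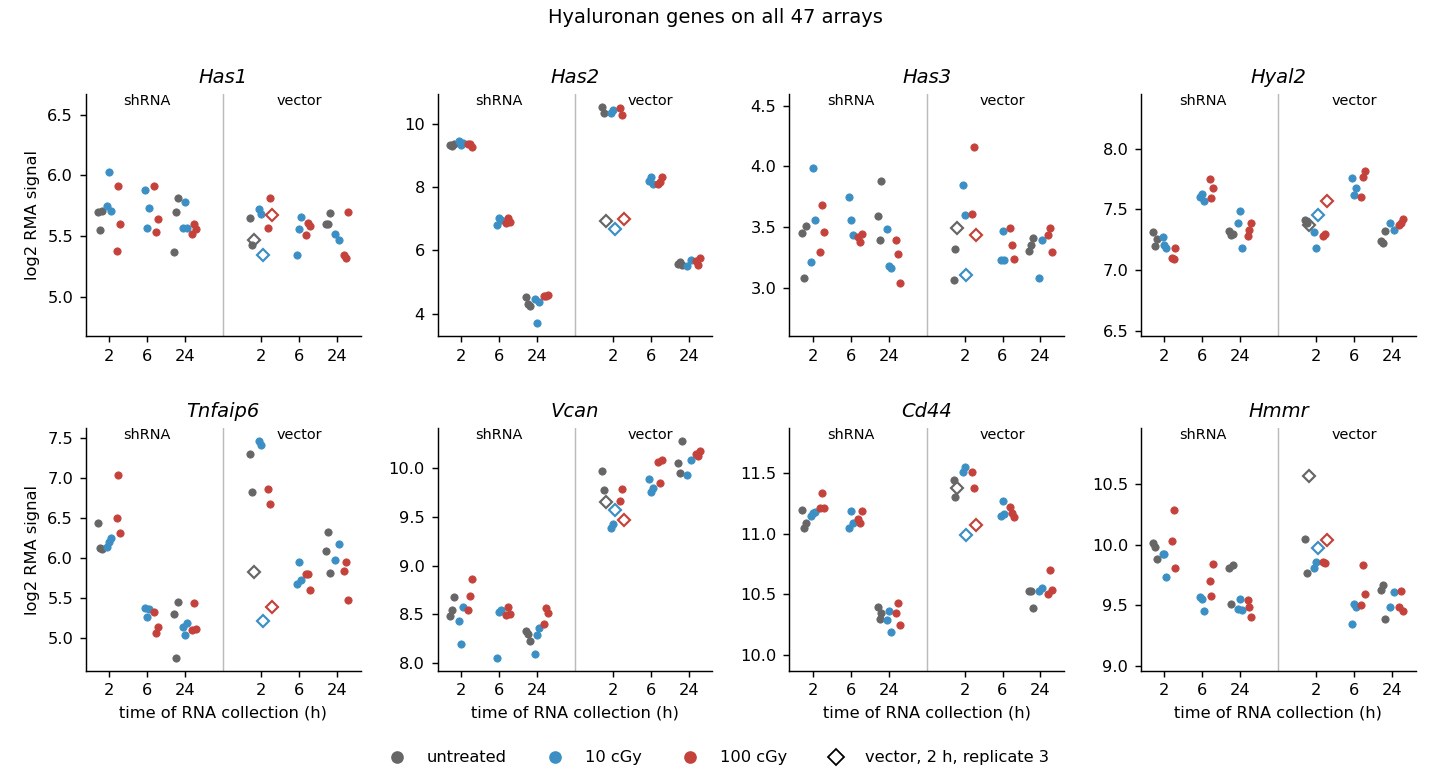
Log2 signal of the 8 measured hyaluronan genes on every array, by collection time (x axis, h), with shRNA cells left of vector cells in each panel and colours for dose. Open diamonds are the 3 vector arrays at 2 h that stood apart, at 6.68 to 7.00 for Has2, where the other 6 read 10.29 to 10.55. All shRNA arrays of Vcan (8.05 to 8.86) lie below all vector arrays (9.39 to 10.28).

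The other synthases showed little signal and no called change. Has1 stayed between 5.37 and 6.03 on the shRNA arrays and between 5.32 and 5.81 on the vector arrays, and passed the test in none of the 24 contrasts made. At 24 against 2 h its difference was -0.03 in shRNA cells (95% interval of the fit from -0.29 to 0.23) and 0.11 in vector cells (-0.15 to 0.37). Has3 lay between 3.04 and 3.99 in shRNA cells and between 3.06 and 4.16 in vector cells, under the limit and so untested. With no filter it passed in 0 of 24 contrasts (lowest adjusted p = 0.144, with 3 contrasts at an unadjusted p under 0.05, in limma).

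Hyal2, the cell-surface hyaluronidase, rose between 2 and 6 h in both lines and fell again by 24 h. After irradiation its shRNA arrays read 7.09 to 7.27 at 2 h, 7.57 to 7.75 at 6 h and 7.18 to 7.49 at 24 h. The vector arrays read 7.18 to 7.57 at 2 h, 7.60 to 7.82 at 6 h and 7.33 to 7.42 at 24 h. At 6 against 2 h Hyal2 rose 1.38-fold in shRNA cells (0.46 ± 0.06, adjusted p = 8.28e-08) and 1.28-fold in vector cells (0.36 ± 0.06, adjusted p = 1.16e-05). At 24 against 6 h it fell by 0.29 in shRNA cells (adjusted p = 5.04e-05) and by 0.33 in vector cells (adjusted p = 1.66e-05), so that the 6 h groups were the high point of a small excursion. Untreated cells, measured at 2 and 24 h, differed by 0.05 in shRNA cells (adjusted p = 0.759) and by -0.13 in vector cells (adjusted p = 0.235). The lines did not differ by the test at any time (-0.13 at 2 h, -0.07 at 6 h and 0.04 at 24 h).

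Vcan, the gene of the hyaluronan-binding chondroitin sulfate proteoglycan versican, differed most firmly between the lines. In untreated cells at 2 h the shRNA arrays read 8.48, 8.54 and 8.68, against 9.97, 9.78 and 9.65 in vector cells. In untreated cells at 24 h they read 8.33, 8.30 and 8.22, against 10.06, 9.95 and 10.28 in vector cells. No array of either line overlapped the other line in any group. Vcan was 2.35-fold lower in shRNA cells at 2 h (-1.23 ± 0.11, adjusted p = 2.87e-11), 2.76-fold lower at 6 h (-1.47 ± 0.08, adjusted p = 5.05e-18) and 3.52-fold lower at 24 h (-1.82 ± 0.11, adjusted p = 5.07e-16). Both other probe sets of Vcan were lower in shRNA cells as well, with differences of -0.67 and -0.76 at 2 h and -1.43 and -1.56 at 24 h, those at 6 h lying between (highest adjusted p = 0.000906).

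In vector cells Vcan rose with time, by 0.36 at 6 against 2 h after irradiation (adjusted p = 0.00152) and by 0.30 at 24 against 2 h without it (adjusted p = 0.0495). In shRNA cells the same differences were -0.10 (adjusted p = 0.43) and -0.28 (adjusted p = 0.0756). The other probe sets went the other way in shRNA cells at 6 against 2 h (0.20 and 0.21, adjusted p = 0.239 and 0.26). At 24 against 2 h they gave -0.17 and -0.07 (adjusted p = 0.542 and 0.848). Set against each other, the changes of both lines differed by the test in both cases, at -0.46 ± 0.11 for 6 against 2 h (adjusted p = 0.0181) and -0.58 ± 0.16 for 24 against 2 h (adjusted p = 0.0235). The first was -0.22 and -0.30 on the other probe sets (adjusted p = 0.587 and 0.462), -0.33 with the mean of all 3 (adjusted p = 0.178), and missed the threshold with the compared groups alone in the fit (adjusted p = 0.0759). The second was -0.51 without the 3 vector arrays (adjusted p = 0.0559). It also missed the threshold without any 1 of 4 arrays: shRNA untreated 2 h replicate 3 (adjusted p = 0.0815), shRNA untreated 24 h replicate 3 (0.0657), vector untreated 2 h replicate 3 (0.0801) and vector untreated 24 h replicate 3 (0.103). The rise of untreated vector cells was lost without vector untreated 2 h replicate 2 (adjusted p = 0.104) or 3 (0.208) and without vector untreated 24 h replicate 1 (0.0771) or 3 (0.285). It was 0.59 and 0.73 on the other probe sets, both past the test (adjusted p = 0.00551 and 0.00182). Without the 3 arrays it was 0.23 on the probe set used (adjusted p = 0.188), and 0.36 and 0.48 on the others (adjusted p = 0.0833 and 0.0428). For 24 against 6 h the difference between the lines was -0.25 (adjusted p = 0.199), and passed without shRNA 10 cGy 6 h replicate 1 (-0.33, adjusted p = 0.0484).

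Tnfaip6, whose product TSG-6 moves heavy chains of the inter-alpha-inhibitor onto hyaluronan, fell between 2 and 6 h in both lines. Irradiated shRNA cells read 6.14, 6.20 and 6.25 at 2 h after 10 cGy and 6.50, 7.04 and 6.31 after 100 cGy, against a range of 5.06 to 5.37 at 6 h and 5.03 to 5.43 at 24 h. Vector arrays at 2 h read 7.46, 7.41 and 5.21 after 10 cGy and 6.86, 6.67 and 5.38 after 100 cGy, with the low value of each triplet on an array that stood apart. At 6 h the vector arrays lay between 5.60 and 5.95. The 6 against 2 h difference was -1.16 ± 0.25 in shRNA cells (2.23-fold lower, adjusted p = 0.000746) and -0.74 ± 0.25 in vector cells (1.67-fold lower, adjusted p = 0.0383).

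The vector difference was -1.34 ± 0.13 without the 3 arrays (adjusted p = 4.07e-10). With them in, it lost its call when any 1 of 9 of its 12 arrays was left out (adjusted p from 0.0547 to 0.157): replicates 1 and 2 of both doses at 2 h, replicates 1, 2 and 3 of 100 cGy at 6 h, and replicates 1 and 3 of 10 cGy at 6 h. In untreated cells Tnfaip6 read 5.30, 4.75 and 5.45 at 24 h and 6.44, 6.12 and 6.11 at 2 h in the shRNA line (-1.06 ± 0.36, adjusted p = 0.0318). The untreated vector arrays read 6.09, 6.33 and 5.81 at 24 h and 7.30, 6.82 and 5.83 at 2 h (-0.57 ± 0.36, adjusted p = 0.251). Without the 3 arrays this last difference was -0.98 ± 0.18 (adjusted p = 6.51e-05), and without vector untreated 2 h replicate 3 alone its adjusted p was 0.0498. The shRNA call was lost without any 1 of shRNA untreated 2 h replicates 1, 2 and 3 (adjusted p = 0.104, 0.0602 and 0.0581) or shRNA untreated 24 h replicates 1 and 2 (0.054 and 0.146).

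Between the lines, Tnfaip6 was 1.88-fold lower in untreated shRNA cells than in untreated vector cells at 24 h (-0.91 ± 0.36, adjusted p = 0.0398). Leaving out shRNA untreated 24 h replicate 1 or 2 (adjusted p = 0.0579 and 0.172) or vector untreated 24 h replicate 1 or 2 (0.0837 and 0.125) ended that call, while leaving out the 3 vector 2 h arrays, which narrows the error, gave adjusted p = 2.01e-05. The line differences at 2 h (-0.43, adjusted p = 0.392) and 6 h (-0.51, adjusted p = 0.0907) did not pass with all arrays. Without the 3 they were -0.83 (adjusted p = 0.000417) and -0.51 (adjusted p = 0.000306). At 6 h, and in untreated cells at 24 h, every shRNA array lay below every vector array.

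Cd44, the main hyaluronan receptor of most cells, was lower at 24 h than at 2 or 6 h in both lines. The shRNA arrays lay between 11.05 and 11.34 at 2 h over all doses, between 11.05 and 11.19 at 6 h and between 10.19 and 10.43 at 24 h. The vector arrays lay between 10.99 and 11.55 at 2 h, between 11.14 and 11.27 at 6 h and between 10.39 and 10.70 at 24 h. In neither line did 24 h arrays overlap those of the other times. At 24 against 6 h Cd44 was 1.75-fold lower in shRNA cells (-0.81 ± 0.07, adjusted p = 9.78e-12) and 1.54-fold lower in vector cells (-0.63 ± 0.07, adjusted p = 1.02e-08), and at 24 against 2 h without radiation 1.7-fold lower in shRNA cells (-0.76, adjusted p = 3.78e-07) and 1.85-fold lower in vector cells (-0.89, adjusted p = 8.75e-09).

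From 2 to 6 h the differences of Cd44 were -0.09 in shRNA cells (adjusted p = 0.416) and -0.15 in vector cells (adjusted p = 0.152), the second of which was -0.30 without the 3 arrays (adjusted p = 7.94e-05). That call also appeared when vector 100 cGy 2 h replicate 3 (-0.21, adjusted p = 0.0288) or vector 10 cGy 2 h replicate 3 (-0.24, adjusted p = 0.00427) alone was left out. Cd44 was 1.2-fold lower in untreated shRNA cells than in untreated vector cells at 2 h (-0.26 ± 0.10, adjusted p = 0.04), a call lost without shRNA untreated 2 h replicate 2 (adjusted p = 0.133) or 3 (0.096) or vector untreated 2 h replicate 1 (0.128) or 3 (0.0805). At 6 h (-0.07) and 24 h (-0.13) the lines did not differ by the test. A second probe set of Cd44, less closely tied to the first (r = 0.594 over 47 arrays), gave larger errors: -0.85 ± 0.33 in shRNA cells and -0.60 ± 0.33 in vector cells at 24 against 2 h, neither past the threshold (adjusted p = 0.0742 and 0.192). Without the 3 arrays both passed (adjusted p = 0.0461 and 0.0314). At 24 against 6 h it gave -0.35 in shRNA cells, which did not pass (adjusted p = 0.244), and -0.66 in vector cells (adjusted p = 0.0333). In untreated cells at 2 h its line difference was -0.17 ± 0.33 and did not pass (adjusted p = 0.745). The mean of both probe sets gave -0.22 there (adjusted p = 0.37).

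Hmmr encodes RHAMM, a hyaluronan receptor that inside the cell also binds the mitotic spindle, and its RNA is known to peak in dividing cells. After irradiation the shRNA arrays read 9.73 to 10.29 at 2 h, 9.45 to 9.84 at 6 h and 9.40 to 9.55 at 24 h. The vector arrays read 9.81 to 10.04 at 2 h, 9.35 to 9.83 at 6 h and 9.45 to 9.62 at 24 h. Hmmr fell at 6 against 2 h by 0.34 in shRNA cells (1.26-fold, adjusted p = 0.00547) and by 0.35 in vector cells (1.27-fold, adjusted p = 0.00517), with arrays that overlapped. In untreated cells at 24 against 2 h it was -0.24 ± 0.13 in shRNA cells (adjusted p = 0.199) and -0.56 ± 0.13 in vector cells (adjusted p = 0.000958), and the difference between the lines was not called (adjusted p = 0.341). The vector difference was -0.34 without the 3 arrays (adjusted p = 0.0261), and vector untreated 2 h replicate 3, at 10.57, was the highest Hmmr value of all.

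No line difference of Hmmr passed the test (-0.17 at 2 h, 0.07 at 6 h and 0.15 at 24 h), though at 2 h it passed when vector untreated 2 h replicate 2 was left out (-0.35, adjusted p = 0.0315). Of the 3 further probe sets of Hmmr, 2 followed the first (r = 0.84 and 0.835). For the fall of vector cells at 6 against 2 h they gave -0.30 (adjusted p = 0.0326, and 0.0681 without the 3 arrays) and -0.28 (adjusted p = 0.052, and 0.0689 without the 3). The third did not (r = 0.183), and gave -0.27 for that fall (adjusted p = 0.525). Its lowest value, 5.21, was on shRNA 10 cGy 6 h replicate 1, the array with the largest Gapdh difference. It was called lower in shRNA than in vector cells at 6 h (-0.66, adjusted p = 0.0196), where the probe set used gave 0.07.

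Other mitotic genes were set beside Hmmr. In a list of 20 mitotic genes, 19 tested, 9 were lower and 0 higher in untreated shRNA cells at 24 against 2 h, and 12 lower and 0 higher in untreated vector cells, with 19.2% and 25.9% of all tested genes called in either direction. Without the 3 vector arrays the order turned, with 11 lower in shRNA cells and 9 in vector cells. The medians of the list were -0.27 in shRNA cells and -0.29 in vector cells, where all tested genes had medians of 0.02 in each. At 6 against 2 h after irradiation 8 were lower in shRNA cells (background 21.5%) and 10 in vector cells (16.7%), with 0 higher in either. Without the 3 vector arrays 8 were lower in each line.

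Over the 7 tested hyaluronan genes, the counts per comparison were these. Between the lines, 2 were lower and 0 higher in shRNA cells at each time (Vcan and Cd44 at 2 h, Vcan and Has2 at 6 h, Vcan and Tnfaip6 at 24 h), where 33.8%, 49.8% and 39.3% of all tested genes were called in either direction. Without the 3 vector arrays 4 were lower at 2 h, with 33.4% of all genes called. At 24 against 2 h without radiation 3 of 7 were called in shRNA cells (background 19.2%) and 4 of 7 in vector cells (25.9%). At 6 against 2 h after irradiation 4 of 7 were called in shRNA cells (21.5%) and 4 of 7 in vector cells (16.7%), and at 24 against 6 h 3 of 7 in shRNA cells (39.2%) and 3 of 7 in vector cells (39%). For the difference between the lines in these changes, 1 of 7 was called for 24 against 2 h (5.69%), 1 for 6 against 2 h (2.85%) and 0 for 24 against 6 h (10.1%).

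**Figure D2:**
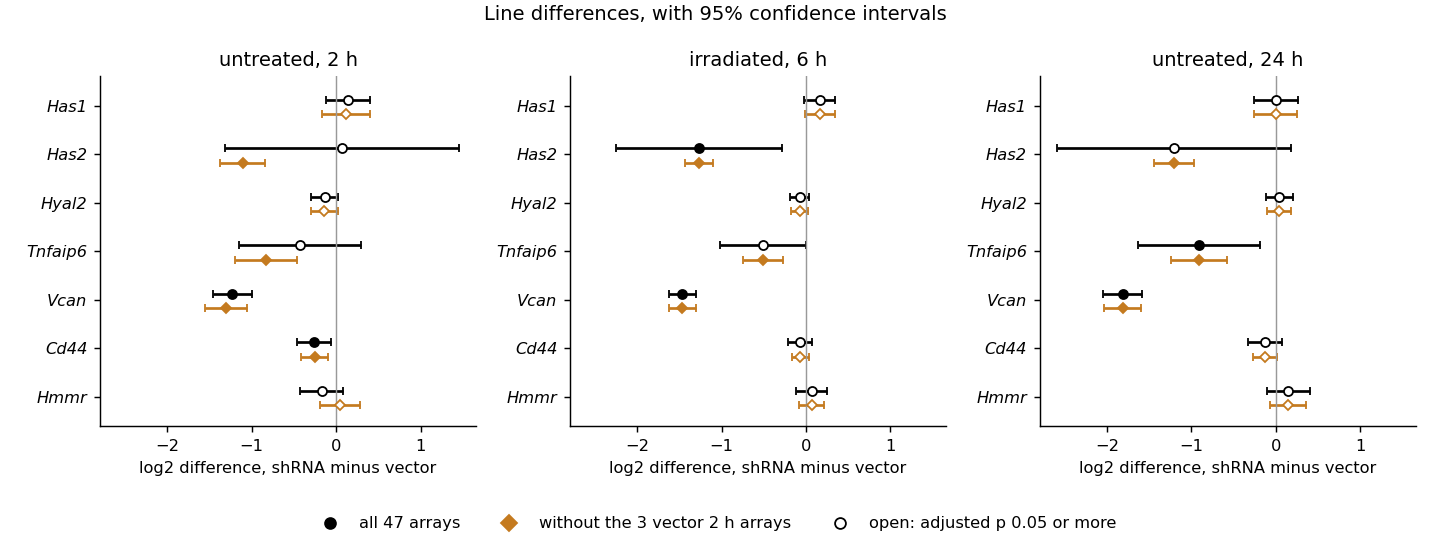
Log2 difference of shRNA minus vector cells (x axis) for the 7 tested hyaluronan genes in untreated cells at 2 h, irradiated cells at 6 h and untreated cells at 24 h. Points are estimates and bars 95% confidence intervals, from all arrays (black circles) and without the 3 vector 2 h arrays (orange diamonds), filled where the adjusted p is under 0.05. Vcan lies at -1.23, -1.47 and -1.82, and the bar of Has2 shortens where the 3 arrays are left out.

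**Figure D3:**
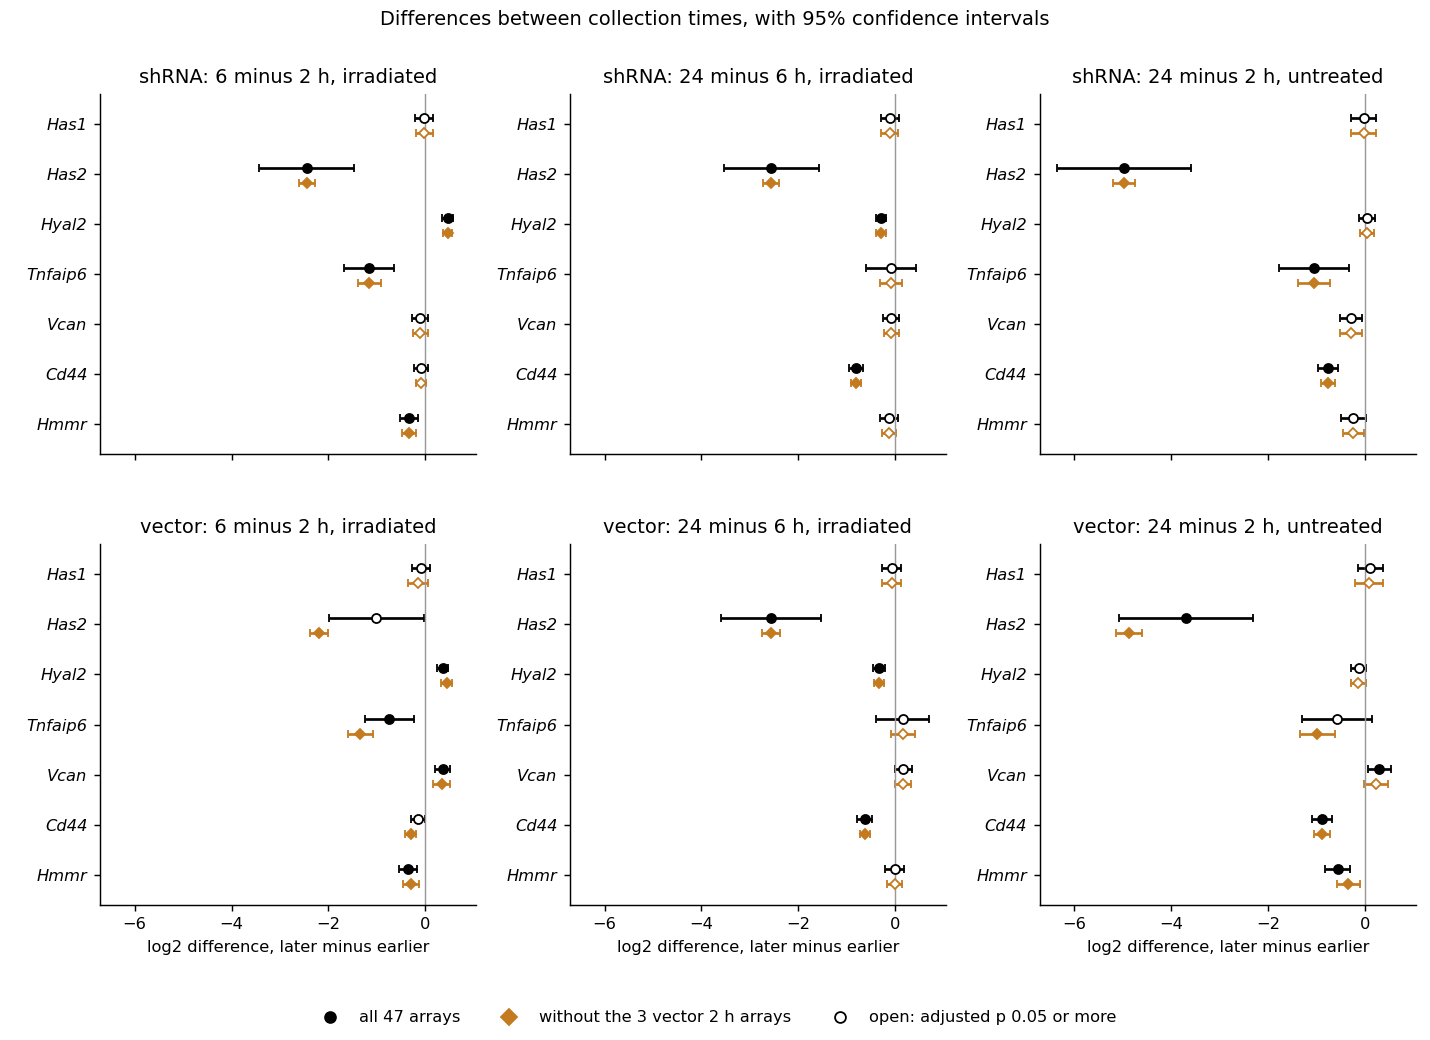
Log2 difference of the later minus the earlier collection time (x axis) for the same genes, in shRNA cells (top) and vector cells (bottom), with 95% confidence intervals and the symbols of the plot of line differences. Has2 lies furthest from 0 in every panel, Hyal2 is above 0 at 6 against 2 h (0.46 in shRNA and 0.36 in vector cells), and Cd44 is below 0 where 24 h is compared.

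The question of a response to X-rays was put to the same genes in 8 comparisons of irradiated with untreated cells, at 10 and 100 cGy, at 2 and 24 h and in both lines. None of the 56 differences passed (limma, lowest adjusted p = 0.501, with 1 at an unadjusted p under 0.05), where few of all tested genes were called. At 100 cGy the shares were 0.0231% at 2 h and 0.161% at 24 h in shRNA cells and 0.0461% and 0.0922% in vector cells, and at 10 cGy 0.0115% and 0% in shRNA cells and 0% and 0.0115% in vector cells. The differences ran from -0.34 to 0.40. For Has2 the intervals reached from -1.58 to 1.59 with all arrays and from -0.42 to 0.44 without the 3, and for Cd44 from -0.28 to 0.34 with all. The difference at an unadjusted p under 0.05 was that of Vcan 2 h after 10 cGy in vector cells, which read 9.39, 9.43 and 9.57 after 10 cGy and 9.97, 9.78 and 9.65 untreated (-0.34 ± 0.11, adjusted p = 0.774). Tnfaip6 2 h after 100 cGy in shRNA cells read 6.50, 7.04 and 6.31, against 6.44, 6.12 and 6.11 untreated (0.40 ± 0.36, adjusted p = 0.909). The array at 7.04 was 1 of the 4 with a raised Gapdh difference.

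The response to 100 cGy did not differ between the lines by the test for any of the 7 genes at 2 or 24 h, with 0.0115% and 0.0807% of all genes called. At 6 h, 100 against 10 cGy gave 0 calls among them in each line (0% of all genes in shRNA and 0.0922% in vector cells). Hmmr read 9.50, 9.83 and 9.59 after 100 cGy and 9.35, 9.51 and 9.49 after 10 cGy in vector cells (0.19 ± 0.13, adjusted p = 0.917). In the mitotic list 4 of 19 genes were higher after 100 than after 10 cGy in those vector cells: Aurka (0.61, adjusted p = 0.00241), Cenpf (0.54, 0.00347), Cdk1 (0.35, 0.0295) and Cdc20 (0.43, 0.0399), which were named after their values were seen. In shRNA cells 0 of 19 passed.

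**Figure D4:**
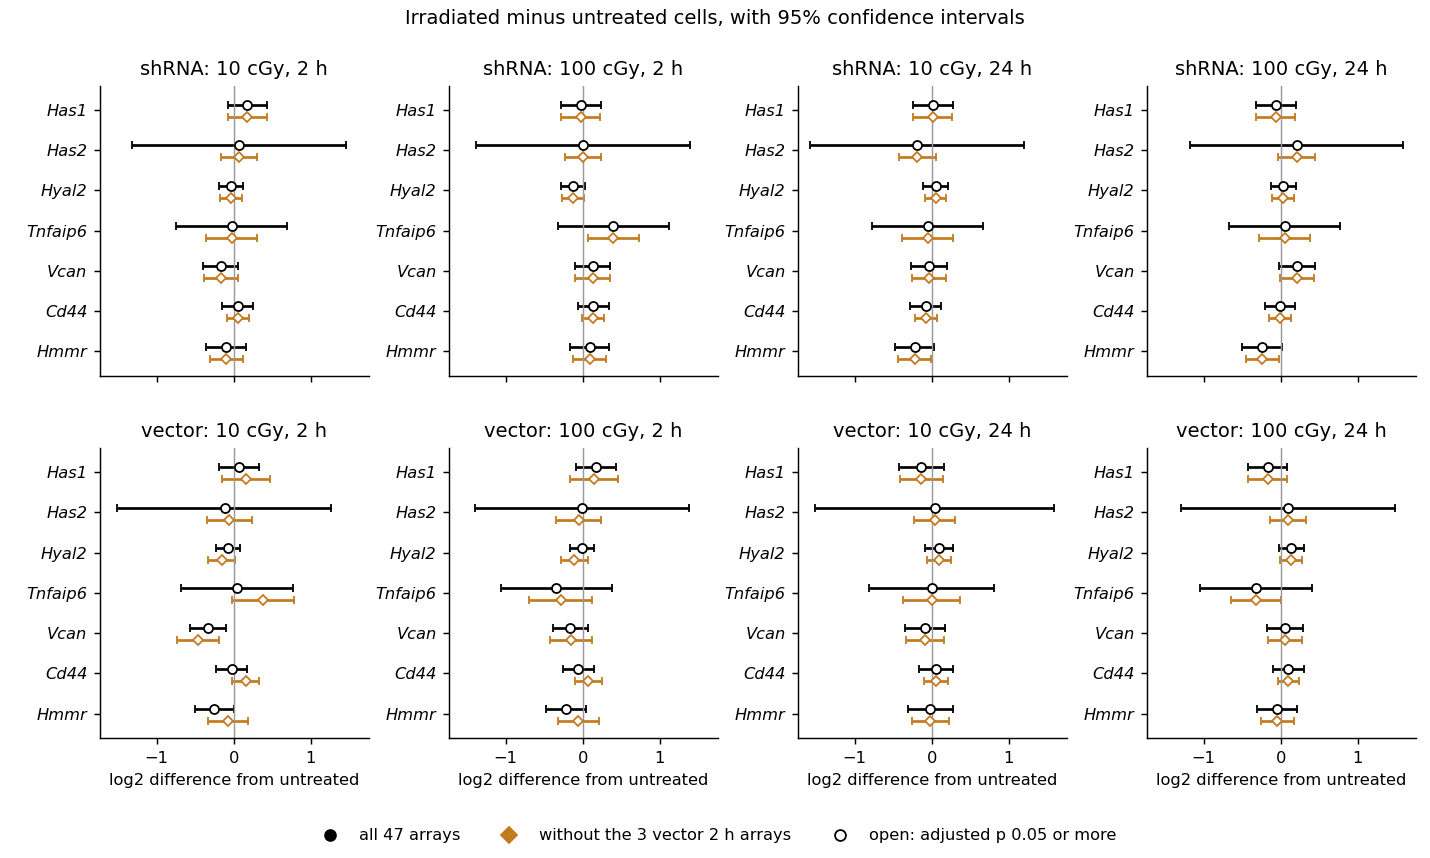
Log2 difference of irradiated minus untreated cells (x axis) for the 7 tested hyaluronan genes at 10 and 100 cGy and at 2 and 24 h, in shRNA cells (top) and vector cells (bottom), with 95% confidence intervals and the symbols of the plot of line differences. All points are open, and they lie between -0.34 and 0.40 with all arrays. The intervals of Has2, up to 1.59 with all arrays, end at 0.44 without the 3 vector 2 h arrays.

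The genes that feed synthesis with sugar nucleotides were also followed over time. Of 12 such genes, 10 were tested, and at 24 against 2 h in untreated cells 4 were lower and 2 higher in shRNA cells (background 19.2%), and 1 lower and 1 higher in vector cells (25.9%, and 4 lower without the 3 arrays). The medians of the list were -0.27 in shRNA cells and -0.12 in vector cells, beside 0.02 over all genes in each. Ugdh, which oxidises UDP-glucose to UDP-glucuronic acid, fell by 0.79 in shRNA cells (adjusted p = 4.38e-05) and by 0.78 in vector cells (adjusted p = 2.93e-05). In irradiated vector cells it was 0.42 higher at 6 than at 2 h (adjusted p = 0.00179), a change that with all arrays was not called different between the lines. Uap1, which makes UDP-N-acetylglucosamine, was 1.11 lower at 24 h in shRNA cells (adjusted p = 0.000716). With all arrays it was not called in vector cells, but its changes did not differ between the lines by the test. Pgm1, a phosphoglucomutase, was 0.33 higher in shRNA cells (adjusted p = 0.00584) and 0.40 higher in vector cells (adjusted p = 0.000689).

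Between the lines these supply genes went both ways, with medians near 0 (0.04 at 2 h and 0.02 at 24 h in untreated cells). Gfpt2, an amidotransferase that opens the hexosamine pathway, averaged 6.39 in untreated shRNA cells and 5.05 in untreated vector cells at 2 h, and was higher in shRNA cells at all times (1.34, 1.09 and 1.24 at 2, 6 and 24 h, highest adjusted p = 1.96e-10). Gnpnat1, the acetyltransferase that follows, averaged 7.71 in untreated shRNA cells and 8.51 in untreated vector cells at 2 h, and was lower in shRNA cells at all times (-0.80, -1.06 and -0.85, highest adjusted p = 0.000276). Gfpt1, the other amidotransferase, was 0.46 lower at 24 than at 2 h in shRNA cells (adjusted p = 0.000749), a change that differed from that of vector cells by -0.64 (adjusted p = 0.003). Without the 3 arrays the changes of Gfpt1 differed by -0.47 (adjusted p = 0.0155).

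Among 9 further turnover genes, 4 were tested. Hexa, a subunit of the lysosomal hexosaminidase, was 0.98 higher at 24 than at 2 h in untreated shRNA cells (adjusted p = 3.15e-08) and 0.78 higher in untreated vector cells (adjusted p = 1.27e-06). At 6 against 2 h after irradiation it was 0.41 higher in shRNA cells (adjusted p = 0.000177), a change above that of vector cells by 0.48 (adjusted p = 0.0104). Without the 3 arrays the changes of Hexa differed by 0.35 (adjusted p = 0.0308). Cemip2, whose product degrades hyaluronan at the surface of mouse cells, averaged 7.41 in untreated shRNA cells and 8.37 in untreated vector cells at 2 h (-0.96, adjusted p = 0.000851), and in vector cells it fell by 1.01 at 24 against 2 h (adjusted p = 0.000788).

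Of 23 further binding and matrix partners 7 were tested, and Ptx3 moved most. Pentraxin 3, its product, is built into the hyaluronan matrix with TSG-6. Untreated shRNA cells averaged 6.96 ± 0.07 (SD, n = 3) at 24 h and 7.94 ± 0.24 at 2 h, and untreated vector cells 7.50 ± 0.13 at 24 h and 5.90 ± 0.15 at 2 h. It thus fell by 0.98 in shRNA cells (adjusted p = 2.85e-05), rose by 1.59 in vector cells (adjusted p = 1.28e-09), and the difference between those changes was -2.57 ± 0.23 (adjusted p = 2.37e-10). Tlr4, a receptor of innate immunity that hyaluronan fragments are reported to engage, was higher at 24 than at 2 h in shRNA cells (0.64, adjusted p = 0.0186) and vector cells (0.97, adjusted p = 0.000323).

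Among 15 partners of CD44, 13 were tested. At 24 against 2 h without radiation 0 of 13 were called in shRNA cells (background 19.2%), and 3 were lower and 0 higher in vector cells (25.9%). Mmp9, a gelatinase that CD44 can hold at the cell surface, averaged 4.02 in untreated shRNA cells and 6.98 in untreated vector cells at 2 h, and 4.17 in untreated shRNA cells and 5.59 in untreated vector cells at 24 h. Its mean in all 8 shRNA groups lay under the low-signal limit of 4.35, so that its distance from vector cells has no exact size. In vector cells Mmp9 fell by 1.40 at 24 against 2 h (adjusted p = 4.32e-08). Iqgap1, a scaffold of the actin cortex, fell there by 0.77 (adjusted p = 0.00202) and Msn, which ties CD44 to actin, by 0.42 (adjusted p = 0.00642).

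**Figure D5:**
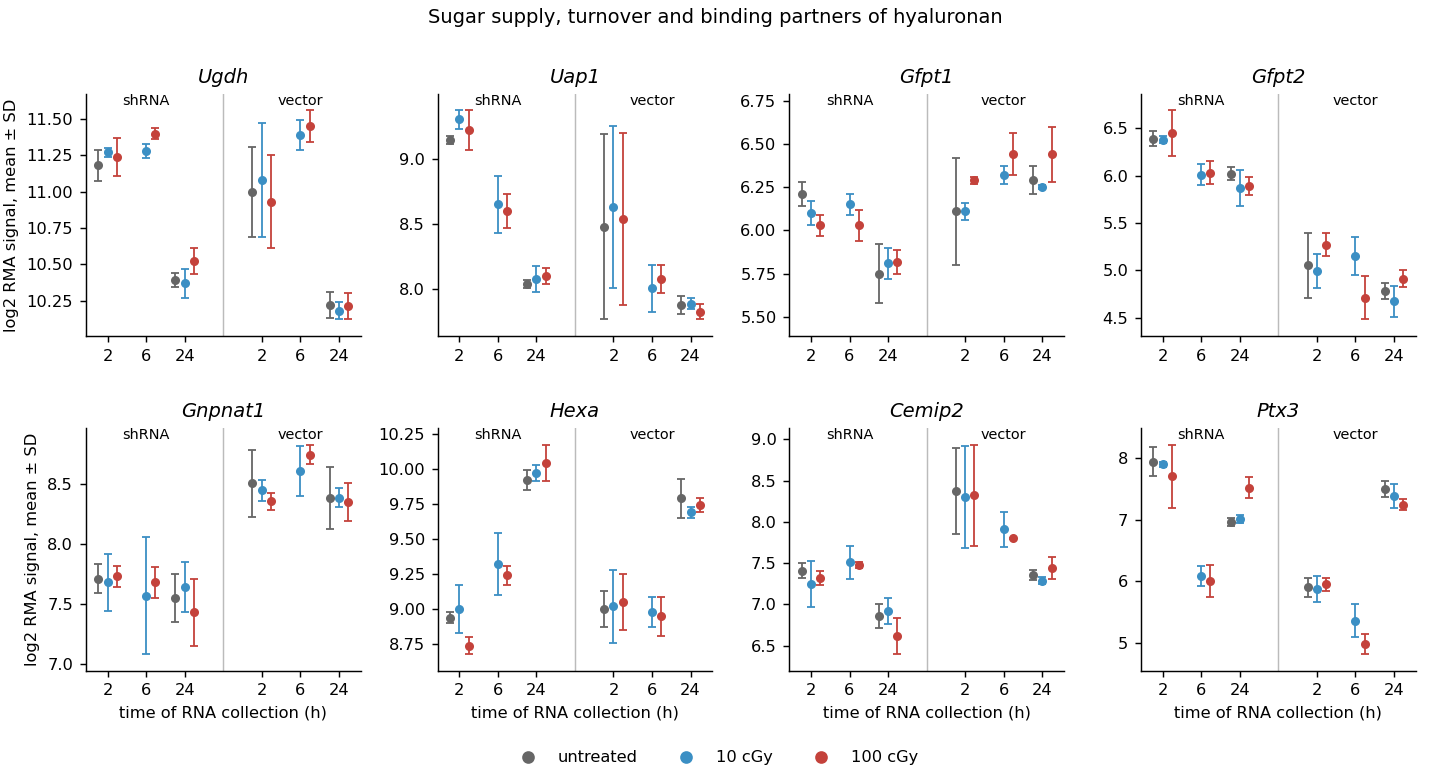
Log2 signal (mean ± SD of the arrays of a group) of 8 genes of sugar supply, turnover and binding by collection time (x axis, h), with shRNA cells left of vector cells in each panel and colours for dose. Wide bars at 2 h in vector cells include the arrays that stood apart. Gfpt2 is higher and Gnpnat1 lower in shRNA cells at all times, and untreated Ptx3 is 7.94 in shRNA and 5.90 in vector cells at 2 h.

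Over the 16 group means, which share arrays, time points and normalization, Has2 and Cd44 ran together (Pearson r = 0.947), as a description without a test. Has2 and Tnfaip6 gave r = 0.765 and Has2 and Hmmr 0.747, whereas Has2 and Vcan gave 0.151. The genes most like Has2 among all tested were Spsb1 (r = 0.991), Vegfa (0.979) and Nr4a2 (0.977). For Cd44 they were Ptpn1 (0.978), Ext1 (0.97) and Unc5b (0.962), and for Tnfaip6 Riok1 (0.966), Rrm2 (0.965) and Rhoj (0.933). Vcan was most like Aldh7a1 (0.983), Tbca (0.982) and Maged2 (0.982), Hmmr most like Mad2l1 (0.954), Zbtb2 (0.925) and Zmym1 (0.914), and Hyal2 most like Rbm15b (0.919), Slc38a1 (0.902) and Efna1 (0.902). The genes nearest to Has1, which varied little, were Asb16 (0.907), Foxo4 (0.863) and Minpp1 (0.839, but 0.504 without the 3 vector arrays).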

How the data were processed

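RNA of 47 samples of JB6 cells was measured on Affymetrix mouse arrays with 22690 probe sets. Per the submitters' processing notes the signals were summarised by RMA, with no version given there. The values the authors deposited are on the log2 scale, from 1.84 to 14.03, and were used as they stand. No 2 arrays were identical, and raw array files were not analysed here. Of the probe sets, 64 are controls, 20380 have 1 gene symbol, 691 several and 1555 none in the platform annotation.

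With limma (3.58.1, R 4.3.3), 1 model with a mean for each of the 16 groups gave 24 contrasts: shRNA against vector cells, irradiated against untreated cells, 100 against 10 cGy at 6 h, later against earlier times, and differences between the lines. A group of 2 arrays is thereby taken to vary like the others. P-values are two-sided and adjusted by Benjamini-Hochberg over the 8675 genes tested, with a threshold of 0.05. Intervals are 95%. "Without the 3 arrays" means a refit without replicate 3 of vector cells at 2 h. With 2 or 3 arrays a group, precision is limited by their number.

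The genes named are the 9 members, Anxa2, up to 4 genes of each pathway list with the smallest p in a contrast, and the 3 genes most like each member. Members and lists were chosen with earlier results of these data known. Same-numbered arrays of irradiated and untreated groups deviated together by r from -0.29 to 0.63 over 29 pairs, and in 3 of 10 comparisons every pair was over 0.1. Alternatives covered the filter, probe set, normalization, variance model, groups fitted, replicate block, arrays that stood apart and each replicate left out.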

Additional observations from a re-analysis of the deposited data

Results flagged for a closer look

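Changes over time that differed between shRNA and vector cells, by a test of the difference itself, were the results marked for a second look. For Vcan the difference was -0.582 for 24 against 2 h in untreated cells and -0.458 for 6 against 2 h in irradiated cells, with the values for each line given above. The 2 other probe sets of Vcan gave -0.75 and -0.80 for 24 against 2 h (adjusted p = 0.0408 and 0.0497), which became -0.53 and -0.56 without the 3 vector arrays (adjusted p = 0.145 and 0.206), and -0.22 and -0.30 for 6 against 2 h (adjusted p = 0.587 and 0.462).

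For Ptx3 the difference was -2.569 for 24 against 2 h in untreated cells, -1.013 for 6 against 2 h and -0.922 for 24 against 6 h in irradiated cells (highest adjusted p = 0.000164). Mmp9 gave 1.545 for 24 against 2 h (adjusted p = 2.27e-05) and 0.878 for 24 against 6 h (adjusted p = 0.000467). The mean of Mmp9 in all 8 shRNA groups was under the low-signal limit (4.02 at 2 h and 4.17 at 24 h in untreated cells). It passed the filter only through its vector values. Its change in shRNA cells therefore cannot be read, and these values have no exact size. For Mmp9 these tests do not show that the lines changed differently. Iqgap1 gave 0.869 for 24 against 2 h (adjusted p = 0.0462, and 0.0746 without the 3 vector arrays) and 0.65 for 24 against 6 h (adjusted p = 0.0245). Msn gave 0.542 for 24 against 6 h (adjusted p = 0.00198), Gfpt1 gave -0.644 for 24 against 2 h (adjusted p = 0.003), and Hexa gave 0.484 for 6 against 2 h (adjusted p = 0.0104). Without the 3 vector arrays Gfpt1 gave -0.474 (adjusted p = 0.0155) and Hexa 0.352 (adjusted p = 0.0308).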

How the results depend on the processing

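Counts of called hyaluronan genes that moved by over 1.5 times are given first, without the share of all genes called in each alternative. For the line difference at 2 h (2 called), 1 was called with no filter, with the mean of all probe sets, with arrays centred on their median, with the compared groups alone in the fit and without the 4 arrays of raised Gapdh difference, and 4 without the 3 vector arrays. For the line difference at 24 h (2 called), 1 was called with quantile normalization and with centred arrays. With 50% of genes left out 1 was called as well, since Tnfaip6 then fell under the filter and was not tested. At 24 against 2 h in vector cells (4 called), 2 were called with the compared groups alone. The difference between lines for 24 against 2 h (1 called) gave 0 with the compared groups alone and without the 3 arrays, that for 6 against 2 h (1 called) gave 0 with the mean of probe sets and the compared groups alone, and that for 24 against 6 h (0 called) gave 1 without the 4 arrays. Other counts moved by 1 or 2 genes, as in 6 against 2 h in vector cells (4 called), with 6 without the 3 arrays and 3 with the compared groups alone. With 1 replicate left out, the counts ranged from 1 to 3 (line difference, 2 h), 1 to 2 (24 h and 6 h), 2 to 3 (24 against 2 h, shRNA), 3 to 4 (vector), 3 to 6 (6 against 2 h, vector), and 0 to 1 for the differences between lines at 24 against 2 h and 24 against 6 h, and did not move in the other comparisons. Among values called in the main fit or the alternative, directions turned for Has2 in the line difference at 2 h, to -1.108 without the 3 arrays. They also turned for Hmmr on the third further probe set, to -0.663 (line difference, 6 h) and 0.715 (24 against 6 h, shRNA). Signs of values called in neither were not counted, and some turned, as for Vcan at 6 against 2 h in shRNA cells (-0.153 to 0.211). The cause was not tested. With the replicate number as a block over all arrays, all 168 values of members kept their call, and no called value changed direction. A replicate block within line and time was fitted for the comparisons of dose only. No member was called there before, and its 84 values stayed uncalled. The counts of line and time differences (2 at each line difference, for example) were thus checked with the common replicate number alone, not with pairing within line and time. Robust variances changed no call either.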
